A study of Homo sapiens with 20 samples.

Results

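The interferon-stimulated effector genes described here are 43 genes whose products carry out or tune the cell's antiviral response. They were taken from a list of gene symbols, and a probe set of the Affymetrix HG-U133 Plus 2.0 array counted for a gene only if its annotation held that symbol and no other. Where several probe sets qualified, the brightest on average over the 20 arrays stood for its gene. All 43 genes had such a probe set. IFI44L was not tested, because its mean log2 intensity of 2.78 lay under the intensity filter, which asked for a mean of at least 3 in each line (E10 and E14 at 24 and 48 h, P2 and U937T at 48 h). The other 42 were tested among 17860 genes.

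The arrays ask how RNA levels change when the transcription factor EVI1 is switched on in human myeloid leukemia cells. E10 and E14 are clones of U937T_EVI1-HA cells, which carry a human EVI1 cDNA with an HA tag that tetracycline (tet) keeps off, P2 is a clone of the empty vector line U937T_vec, and U937T are the parental cells. All cultures were grown in puromycin and tet, and those of E10, E14 and P2 in hygromycin too, before every culture was washed and put into medium with 1 µg/ml tet or without it. Harvests of E10 and E14 took place at 6, 12, 24 and 48 h and those of P2 and U937T at 48 h, with 1 array for each line, time and condition, so that each group holds 2 arrays from different lines. The EVI1 response is the log2 intensity without tet minus that with tet, averaged over E10 and E14, the control response is the same difference in P2 and U937T, and the EVI1-specific response at 48 h is the first minus the latter. EVI1 induction thus rests on 2 clones, and the controls on 1 vector clone and the line it came from. P-values rest on how far the difference between the 2 lines varied from group to group, pooled over all groups. The constant part of that difference was taken out, except in the comparison of clones and control lines with tet. No line was cultured more than once per time and condition, so the spread between repeated cultures was not measured.

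Interferons are secreted proteins that bind receptors on the cell surface and, through kinases and transcription factors, switch on a large set of genes. Many of these genes hold an interferon-stimulated response element, a DNA sequence bound by complexes that contain interferon regulatory factors such as IRF9. Their products degrade or sequester foreign RNA, block entry or budding of viruses, attach the ubiquitin-like protein ISG15 to other proteins, or sense RNA and feed back on the response, and monocytic cells are known to express them readily.

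MECOM, the gene that encodes EVI1, lay between 7.06 and 7.34 on the log2 scale on the 8 arrays of E10 and E14 with tet. Without tet it was at 8.52, 9.52, 9.64 and 10.51 in E10 and at 8.63, 9.92, 9.60 and 9.98 in E14 after 6, 12, 24 and 48 h, while P2 went from 6.90 to 5.91 and U937T from 6.48 to 6.53. The induced gene therefore followed the labels. Of the markers of myeloid cells, CEBPA lay between 11.26 and 11.89, LYZ between 11.20 and 12.35, CD4 between 9.96 and 10.83, PTPRC between 9.11 and 10.67 and SPI1 between 8.85 and 10.29 over the arrays, while MPO did not exceed 5.33 and CD14 did not exceed 4.40. The widest ranges were those of ITGAM, which encodes CD11b, from 5.05 to 10.53, and of CSF1R, from 6.67 to 9.10. Array medians ran from 5.25 to 5.35. The gap between 3′ and 5′ control probe sets, which widens as RNA degrades, was 0.71 in the median, and its highest values, 1.52 with and 1.40 without tet, belonged to E14 at 24 h.

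Over the 42 genes, the mean log2 intensity lay between 7.03 and 7.24 on the arrays with tet. After 48 h without tet it was 8.11 in E10 and 8.12 in E14, against 7.36 in P2 and 7.28 in U937T. Both EVI1 clones stood above every other array at that point, and at 24 h they had reached 7.47 and 7.48. In the EVI1-specific response 21 of the 42 genes passed the test as higher and 0 as lower (limma, Benjamini-Hochberg adjusted p under 0.05 over all genes tested), where 2.43% and 3.03% of all genes did so. Without adjustment, 29 of the 42 were higher and 1 lower at p under 0.05 by limma. The share of all genes at an unadjusted p was not taken, here or below. The median over the 42 genes was 0.60 on the log2 scale, with a range from -0.37 to 2.26, while the median over all genes was -0.004. The change of each clone exceeded that of each control line in 34 of the 42 genes and lay below it in 1 gene, where 22.8% and 22.9% of all genes did so. The list was drawn up with earlier results of these arrays known, and IFIT1 and SAMD9L are among the genes that the study itself picked on them, so these counts describe the list and are no independent evidence of its direction.

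Precision is limited by the number of arrays, for these genes and for all others. Over all genes, 434 passed as higher, but 177 when only the arrays at 48 h were fitted, and fewer than 434 with any line left out. The count of 21 became 4 without E10, 2 without E14, 15 without P2, 8 without U937T and 13 when only the arrays at 48 h were fitted. IFIT1 and RSAD2 passed the test under all 14 alternatives that gave this response (the crossed block of the control lines not counted), and IFI6 and SAMD9L under 13, failing without E14 (adjusted p = 0.059 and 0.056 from limma). Of the 21 genes, 6 passed under fewer of the alternatives than they failed, namely IFIT5 and EIF2AK2 (6 of 13 and 6 of 14 alternatives), IFIH1 and HERC6 (5 of 14 each), and PARP14 and LGALS3BP (4 of 14 and 4 of 13). Over all genes, 434 were higher and 541 lower, and 344 and 659 when each array was centred on its median, with 19 of the 42 genes then passing as higher. The mean of 9 measured myeloid markers moved with tet withdrawal too, from 8.10 to 9.0 in E10 and from 8.21 to 9.07 in E14, with 8.17 and 8.67 in P2 and 8.09 and 8.77 in U937T. ITGAM carried much of this shift, since it changed by 5.07, 5.48, 3.84 and 4.0 in E10, E14, P2 and U937T. Without ITGAM, the mean of the other 8 was 8.46 with and 8.85 without tet in E10, 8.6 and 8.89 in E14, 8.50 and 8.58 in P2, and 8.41 and 8.67 in U937T. The part of these markers in the result was not tested. The mean of 3 markers of plasmacytoid dendritic cells, known as strong producers of interferon, lay between 5.16 and 5.61 on the 8 arrays at 48 h. Marker means of other cell types lay between 4.75 and 5.20 for T cells, 5.79 and 6.32 for B cells, 4.89 and 5.38 for erythroid cells and 5.27 and 5.65 for fibroblasts over the 20 arrays. Since RNA was taken from whole cultures, fewer cells expressing a gene and less RNA of it per cell cannot be told apart.

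**Figure D1:**
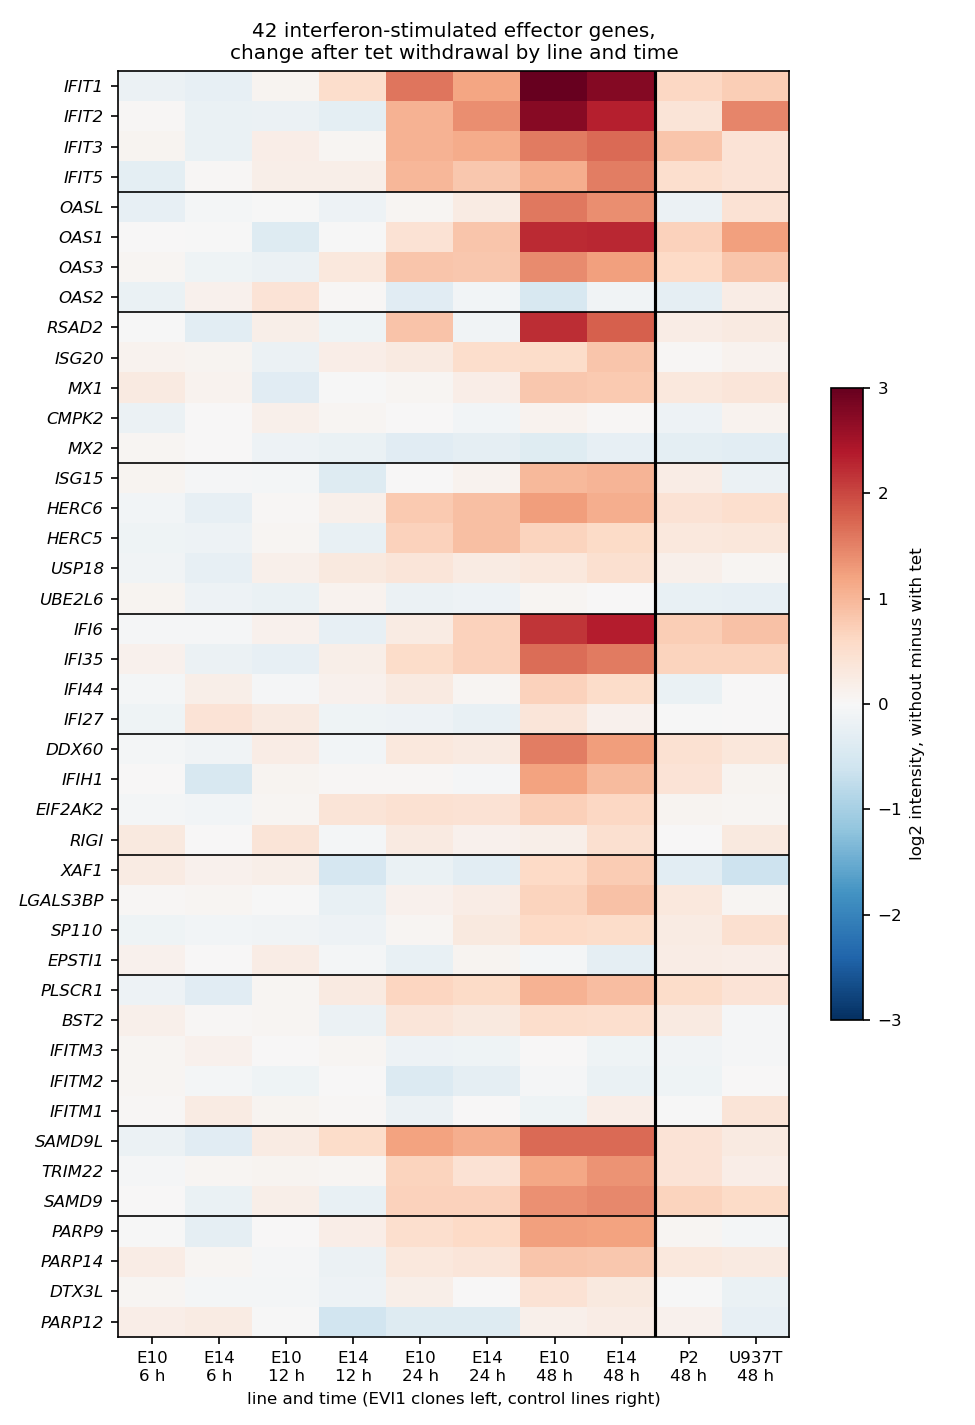
Log2 change (without minus with tet) of the 42 tested genes, 1 row per gene and 1 column per line and time, with EVI1 clones left of the black line, control lines right of it, and the roles of the genes separated by thin lines. Red stands for higher and blue for lower without tet. The columns of E10 and E14 are pale at 6 and 12 h and red in many rows at 48 h, where IFIT1 reached 3.12 in E10.

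The promoters of these genes were searched for the core of the response element, GAAANNGAAA (N is any base), on either strand, within 300 bases that run from 250 before to 50 after a transcription start (RefSeq, GRCh38.p14). Such windows were found for 36 of the 43 genes, 49 windows in all, and none for IFIT2, OAS2, OASL, MX2, USP18, TRIM22 and IFITM2. The core was in 32 of the 49 windows (65.3%) and in 27 of the 36 genes (75%). Of all 35116 windows in the table, 3.57% held it, and of all 27305 genes 4.38%. Among genes that passed the test in the EVI1-specific response 13 of 18 held the core (72.2%), and among those that did not 13 of 17 (76.5%). A shorter core bound by the amino-terminal zinc fingers of EVI1, AAGATAA, was in the windows of CMPK2 and OAS1 (5.56% of 36 genes, against 4.04% of all genes). Matches of both cores may share bases at their ends, as may neighboring matches of the response element. A match is a run of letters and not a measured binding site, and a window without one says only that these letters are not in it. The stretches below carry the core in capitals with 15 bases on each side, 5′ to 3′ in the direction of the gene. IFIT1, ISG15 and RSAD2 are shown as genes that held the core and passed the EVI1-specific test. PARP9 and DTX3L are shown because their windows share 1 stretch on opposite strands, and EPSTI1 and IFITM3 as genes that held the core and did not pass the test. The choice does not tie the core to the size of the response. SAMD9L, OAS1 and XAF1, with 1.36, 1.30 and 1.15, held no core in their windows, and neither did another window of RSAD2.
IFIT1, chr10:89392492-89392544, plus strand: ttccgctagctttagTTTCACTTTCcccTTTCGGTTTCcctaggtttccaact
ISG15, chr1:1013369-1013414, plus strand: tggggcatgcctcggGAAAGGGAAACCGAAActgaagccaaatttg
RSAD2, chr2:6877617-6877656, plus strand: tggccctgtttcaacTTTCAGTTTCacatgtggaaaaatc
PARP9, chr3:122564317-122564356, minus strand: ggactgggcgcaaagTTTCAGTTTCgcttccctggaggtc
DTX3L, chr3:122564317-122564356, plus strand: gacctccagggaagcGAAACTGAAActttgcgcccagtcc
EPSTI1, chr13:42992267-42992306, minus strand: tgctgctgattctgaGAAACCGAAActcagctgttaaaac
IFITM3, chr11:320871-320927, minus strand: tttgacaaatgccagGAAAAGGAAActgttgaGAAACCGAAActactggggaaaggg

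The IFIT proteins bind foreign RNA and block its translation, and all 4 of their genes passed the EVI1-specific test. IFIT1, which recognizes RNA ends that lack the methylation of host messenger RNA, was at 5.61, 5.04, 5.01 and 5.64 in E10 with tet after 6, 12, 24 and 48 h and at 5.42, 5.13, 6.63 and 8.76 without it. In E14, IFIT1 was at 5.91, 4.72, 5.17 and 5.84 with tet and at 5.67, 5.25, 6.35 and 8.58 without it. P2 went from 5.50 to 6.11 and U937T from 4.70 to 5.44. Every line was thus higher without tet at 48 h, and the clones by far more, with an EVI1-specific response of 2.26 (4.78-fold, SE, the standard error, 0.21, limma adjusted p = 3.9e-05). IFIT2, a partner of IFIT1 and IFIT3 in RNA binding, was at 5.83, 5.50, 5.49 and 6.35 in E10 with tet and at 5.87, 5.33, 6.54 and 9.07 without it. In E14, IFIT2 was at 6.17, 5.46, 5.39 and 6.94 with tet and at 5.97, 5.17, 6.78 and 9.29 without it. The control lines did not move alike, since P2 went from 6.01 to 6.39 and U937T from 4.62 to 6.08. Its EVI1-specific response was 1.61 (SE 0.30, limma adjusted p = 0.0054), and 1.14 on its other probe set. IFIT3 and IFIT5 rose by 1.01 and 0.86 in the same contrast (adjusted p = 0.0068 and 0.034 from limma).

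**Figure D2:**
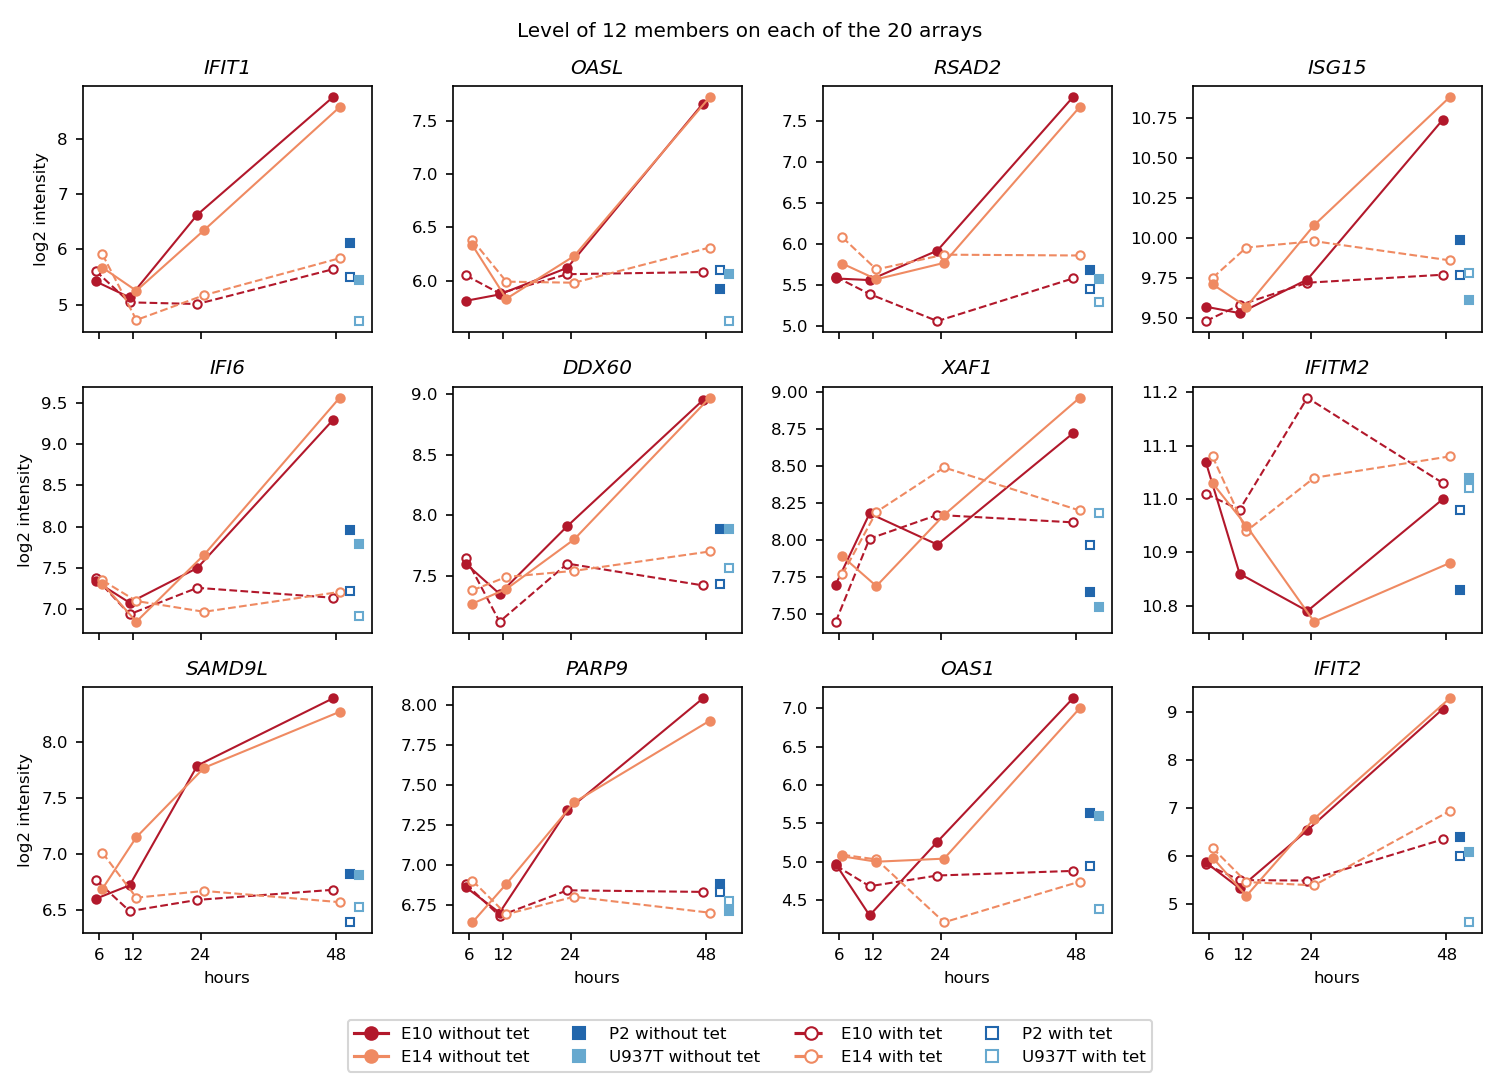
Log2 intensity (y axis) against hours after the change of medium (x axis) for 12 genes on each of the 20 arrays, 1 panel per gene with its own y axis. Circles joined by lines are E10 and E14, squares are P2 and U937T, which were harvested at 48 h and are drawn to the right of it, filled without and open with tet. IFIT1 rises to 8.76 and 8.58 in the clones without tet, while IFITM2 stays between 10.77 and 11.19 on all arrays.

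The OAS proteins are activated by double-stranded RNA, OAS1, OAS2 and OAS3 to make oligoadenylates that switch on RNA degradation, and OASL, which lacks that activity, to act on RNA sensing. OASL and OAS1 passed the EVI1-specific test and OAS3 and OAS2 did not. OASL lay between 5.88 and 6.38 on the arrays of the clones with tet, and at 5.81, 5.87, 6.12 and 7.66 in E10 and 6.33, 5.83, 6.23 and 7.72 in E14 after 6, 12, 24 and 48 h without it. The control lines went in opposite directions, P2 from 6.10 to 5.92 and U937T from 5.62 to 6.06. The clones stood apart only at 48 h, with an EVI1-specific response of 1.37 (SE 0.21, limma adjusted p = 0.0018). OAS1 was at 4.95, 4.68, 4.82 and 4.88 in E10 with tet and 4.97, 4.30, 5.26 and 7.13 without it. In E14, OAS1 was at 5.09, 5.03, 4.21 and 4.74 with tet and 5.07, 5.00, 5.04 and 7.0 without it. P2 went from 4.94 to 5.63 and U937T from 4.38 to 5.60. OAS1 was therefore higher without tet in all lines at 48 h, and its control response, 0.96, was the largest of the 42 genes. Its EVI1-specific response was 1.30 (SE 0.32, limma adjusted p = 0.028). OAS3 had 1.42 in E10, 1.24 in E14, 0.60 in P2 and 0.83 in U937T, and its EVI1-specific value of 0.61 did not pass (adjusted p = 0.08 from limma). OAS2, which lies next to OAS3 in the genome, had an EVI1-specific value of -0.28 (95% interval from -0.73 to 0.17), and its other probe sets had 0.14 and -0.07.

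RSAD2 encodes viperin, an enzyme that makes a chain-terminating nucleotide against viral polymerases, and its promoter stretch is shown above. RSAD2 was at 5.60, 5.39, 5.06 and 5.58 in E10 with tet after 6, 12, 24 and 48 h and at 5.58, 5.56, 5.92 and 7.79 without it. In E14, RSAD2 was at 6.08, 5.69, 5.87 and 5.86 with tet and at 5.76, 5.57, 5.77 and 7.67 without it, and P2 went from 5.45 to 5.68 and U937T from 5.29 to 5.57. The rise was seen at 48 h in the clones, and the EVI1-specific response was 1.75 (3.36-fold, SE 0.26, limma adjusted p = 0.0011) and 1.96 on the other probe set. CMPK2, a mitochondrial nucleotide kinase and the direct neighbor of RSAD2, changed by 0.11, 0.04, -0.16 and 0.10 in E10, E14, P2 and U937T. Its EVI1-specific value was 0.10 (95% interval from -0.23 to 0.42). Of the remaining genes in this group, the exonuclease gene ISG20 had 0.62 (adjusted p = 0.061 from limma) and MX1, a GTPase that traps viral nucleocapsids, 0.45 (adjusted p = 0.15 from limma). MX2, a GTPase of the nuclear envelope, went the other way. It was at 10.13, 10.08, 10.12 and 10.10 with tet at 48 h in E10, E14, P2 and U937T and at 9.77, 9.83, 9.82 and 9.78 without tet, so that the groups did not overlap. MX2 fell in the clones and in the control lines by 0.31 each (adjusted p = 0.014 and 0.032 from limma), with an EVI1-specific value of 0.01.

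ISG15 is conjugated to other proteins by a ubiquitin-like pathway in which UBE2L6 is the conjugating enzyme, HERC5 the main ligase and USP18 the protease that removes it. ISG15 lay between 9.48 and 9.98 on the 8 arrays of the clones with tet. Without tet it was at 9.57, 9.53, 9.74 and 10.74 in E10 and 9.71, 9.57, 10.08 and 10.88 in E14, while P2 went from 9.77 to 9.99 and U937T from 9.78 to 9.61. At 48 h the clones without tet lay above all other arrays, with an EVI1-specific response of 0.96 (SE 0.16, limma adjusted p = 0.0026). HERC6, a relative of HERC5, passed the EVI1-specific test as well, with 0.69 (adjusted p = 0.027 from limma). HERC5, USP18 and UBE2L6 had 0.30, 0.29 and 0.26 and did not pass. HERC5 did pass in the clones by themselves, with 0.80 at 24 h and 0.62 at 48 h (adjusted p = 0.0002 and 0.00062 from limma), beside 0.32 in the control lines.

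Of the IFI genes, named for their induction by interferon, IFI6 and IFI35 passed the EVI1-specific test and IFI44 and IFI27 did not. IFI6, a membrane protein that limits virus replication, was at 7.38, 6.94, 7.26 and 7.14 in E10 with tet and 7.34, 7.08, 7.50 and 9.29 without it. In E14 it was at 7.35, 7.10, 6.97 and 7.21 with tet and 7.31, 6.85, 7.66 and 9.56 without it, and P2 went from 7.22 to 7.96 and U937T from 6.92 to 7.79. IFI6 thus rose in clones and control lines, by 2.25 and 0.80 (adjusted p = 1.7e-08 and 0.0013 from limma), and the difference of 1.44 passed too (SE 0.18, limma adjusted p = 0.00035). IFI35 had 0.97 (adjusted p = 0.0075 from limma), IFI44 0.70 (adjusted p = 0.15 from limma) and IFI27 0.26 (adjusted p = 0.55 from limma). For IFI44L, which lies beside IFI44, the untested changes at 48 h were 0.16 in E10, 0.34 in E14 and 0.12 in each control line.

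RNA helicases sense viral RNA in the cytoplasm, and EIF2AK2 encodes PKR, a kinase that halts translation when it binds double-stranded RNA. DDX60, a helicase that cooperates with these sensors, lay between 7.12 and 7.70 in the clones with tet. Without tet it was at 7.60, 7.35, 7.91 and 8.95 in E10 and 7.27, 7.39, 7.80 and 8.97 in E14, and P2 went from 7.43 to 7.89 and U937T from 7.56 to 7.89. All lines were higher without tet at 48 h, and the EVI1-specific response was 1.00 (SE 0.21, limma adjusted p = 0.012). IFIH1, which encodes the sensor MDA5, had an EVI1-specific response of 0.82 and EIF2AK2 one of 0.59 (adjusted p = 0.045 and 0.023 from limma). The probe sets of EIF2AK2 disagree, since the others had 0.37 and -0.39, and the last is the one with the largest spread. RIGI, the sensor of RNA with a triphosphate end, had 0.17 on the probe set with the highest mean, which may match other transcripts too, and did not pass (adjusted p = 0.75 from limma). Its other probe sets had 0.86 and 1.27, and with the mean of its probe sets or the one with the largest spread RIGI passed the test.

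XAF1 encodes a protein that opposes inhibitors of apoptosis. With tet at 6, 12, 24 and 48 h it was at 7.45, 8.01, 8.17 and 8.12 in E10 and 7.77, 8.19, 8.49 and 8.20 in E14. Without tet XAF1 was at 7.70, 8.18, 7.97 and 8.72 in E10 and 7.89, 7.69, 8.17 and 8.96 in E14, and P2 went from 7.97 to 7.65 and U937T from 8.18 to 7.55. Both clones were higher and both control lines lower at 48 h without tet. The EVI1-specific response was 1.15 (SE 0.23, limma adjusted p = 0.0077), made up of 0.68 in the clones (adjusted p = 0.0045 from limma) and -0.48 in the control lines (adjusted p = 0.075 from limma). The other probe sets of XAF1 had 0.83 and 0.43, and on the latter both control lines were higher without tet, by 0.09 in P2 and 0.36 in U937T. With the probe set of largest spread, XAF1 had 0.83 and did not pass (limma adjusted p = 0.19). LGALS3BP, a secreted glycoprotein, had an EVI1-specific response of 0.58 (adjusted p = 0.026 from limma). SP110, a nuclear body protein, had 0.20 on the probe set used and from 0.50 to 0.86 on its other 4. EPSTI1 had -0.37, the lowest EVI1-specific value of the 42 genes (95% interval from -0.72 to -0.02, adjusted p = 0.25 from limma).

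Membrane proteins that restrict entry or release of viruses did not pass the EVI1-specific test in any of 5 cases by limma, and 2 of them had an unadjusted p under 0.05. IFITM2, which blocks fusion of viruses in endosomes, was at 11.01, 10.98, 11.19 and 11.03 in E10 with tet and 11.07, 10.86, 10.79 and 11.00 without it. In E14 it was at 11.08, 10.94, 11.04 and 11.08 with tet and 11.03, 10.95, 10.77 and 10.88 without it, and P2 went from 10.98 to 10.83 and U937T from 11.02 to 11.04. Its levels overlapped at 48 h, and the EVI1-specific value was -0.06 (95% interval from -0.33 to 0.22). At 24 h IFITM2 fell by 0.34 in the clones (adjusted p = 0.021 from limma). IFITM1, its direct neighbor, had -0.14, and IFITM3, on the other side of IFITM1, 0.02. The probe sets of the IFITM genes may read their near-identical relatives as well, so their values are uncertain as to which gene they measure. PLSCR1, a phospholipid-binding protein, had 0.51 and BST2 (tetherin), which holds budding virus at the surface, 0.40, and both passed in the clones by themselves at 24 and 48 h.

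SAMD9L and its neighbor SAMD9 restrict poxviruses, and TRIM22 is an antiviral ubiquitin ligase. All 3 passed the EVI1-specific test. SAMD9L lay between 6.49 and 7.01 in the clones with tet, and without tet it was at 6.60, 6.72, 7.79 and 8.39 in E10 and 6.69, 7.15, 7.77 and 8.27 in E14. P2 went from 6.39 to 6.82 and U937T from 6.53 to 6.81. SAMD9L was already apart from the arrays with tet at 24 h, and its EVI1-specific response was 1.36 (SE 0.17, limma adjusted p = 0.00042), with 1.48 and 1.42 on its other probe sets. TRIM22 had 0.94 and SAMD9 0.77 in the same contrast (adjusted p = 0.0049 and 0.014 from limma).

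PARP9 and DTX3L encode partner proteins that modify others with ADP-ribose and ubiquitin, and they start on opposite strands around the stretch shown above. PARP9 lay between 6.68 and 6.90 in the clones with tet, and without tet it was at 6.86, 6.70, 7.34 and 8.04 in E10 and 6.64, 6.88, 7.39 and 7.90 in E14. P2 went from 6.83 to 6.88 and U937T from 6.77 to 6.71. The control lines hardly moved, and the EVI1-specific response was 1.21 (SE 0.14, limma adjusted p = 0.00024), against 0.33 on the other probe set. DTX3L had 0.44 and 0.30 in E10 and E14 and -0.01 and -0.20 in P2 and U937T. Its EVI1-specific value of 0.47 did not pass (adjusted p = 0.075 from limma). PARP14 passed the EVI1-specific test with 0.53 (adjusted p = 0.025 from limma), with -0.07 on its dimmer probe set, and PARP12 had 0.25 and did not pass.

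Across all 75 probe sets of the 43 genes, the change of the clones at 48 h minus that of the control lines was above 0 in 67. The same share was not taken over all probe sets of the array. A single probe set stood for 21 genes. Neighbors in the genome did not always move alike, as RSAD2 with CMPK2 and OAS1 with OAS3 and OAS2 show above, and the differences between such neighbors were not tested.

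The responses over time are those of the clones, without subtraction of the control lines, which were harvested at 48 h only. At 6, 12 and 24 h, induction of EVI1 and tet withdrawal by itself therefore cannot be told apart. After 6 h, 0 of the 42 genes passed the limma test, and 0 had an unadjusted p under 0.05, while 0% of all genes passed as higher and 0% as lower. After 12 h again 0 passed by limma, where 0.0168% of all genes passed as higher and 0.0112% as lower. An unadjusted p under 0.05 by limma was found in 3 of the 42 genes (SAMD9L, USP18 and EIF2AK2). MECOM itself was at 9.52 and 9.92 without tet by then. After 24 h, 19 genes were higher and 2 lower (MX2 and IFITM2), against 7.97% and 9.16% of all genes, with a median of 0.29 over the 42 genes. After 48 h, 31 were higher and 1 (MX2) lower, against 16.0% and 14.7%, with a median of 0.78. All 19 genes higher at 24 h were among the 31 at 48 h. Since the E14 arrays at 24 h stood apart in the 3′ to 5′ measure, the count at 24 h was also taken with the 12 and 24 h arrays of E14 left out, and was then 9. It was 6 without E10 and 4 without E14.

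The change of the EVI1 response from 24 to 48 h passed the test upward in 16 genes and downward in 0 by limma, against 2.07% and 1.63% of all genes. At an unadjusted p under 0.05 by limma, the counts among the 42 genes were 23 and 0. With no control line at 24 h, the part of tet withdrawal by itself in this change was not tested. IFI6 had 1.78 (adjusted p = 0.00013 from limma), OAS1 and RSAD2 1.62 each (adjusted p = 0.012 and 0.0032 from limma) and IFIT1 1.54 (adjusted p = 0.0011 from limma). Among the 16, 9 had not passed at 24 h, namely OAS1, OASL, RSAD2, MX1, ISG15, IFIH1, DDX60, XAF1 and LGALS3BP. ISG15 had 0.06 at 24 h and 0.99 at 48 h, and IFIH1 0.00 and 1.07. Another 12 genes were higher at 24 h and had no change to 48 h that passed the test, among them IFIT3 with 1.08 and 1.63, SAMD9L with 1.15 and 1.71, and HERC6 with 0.84 and 1.16. With the 12 and 24 h arrays of E14 left out the count of 16 was 4, and it was 0 without E10 and 1 without E14.

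**Figure D3:**
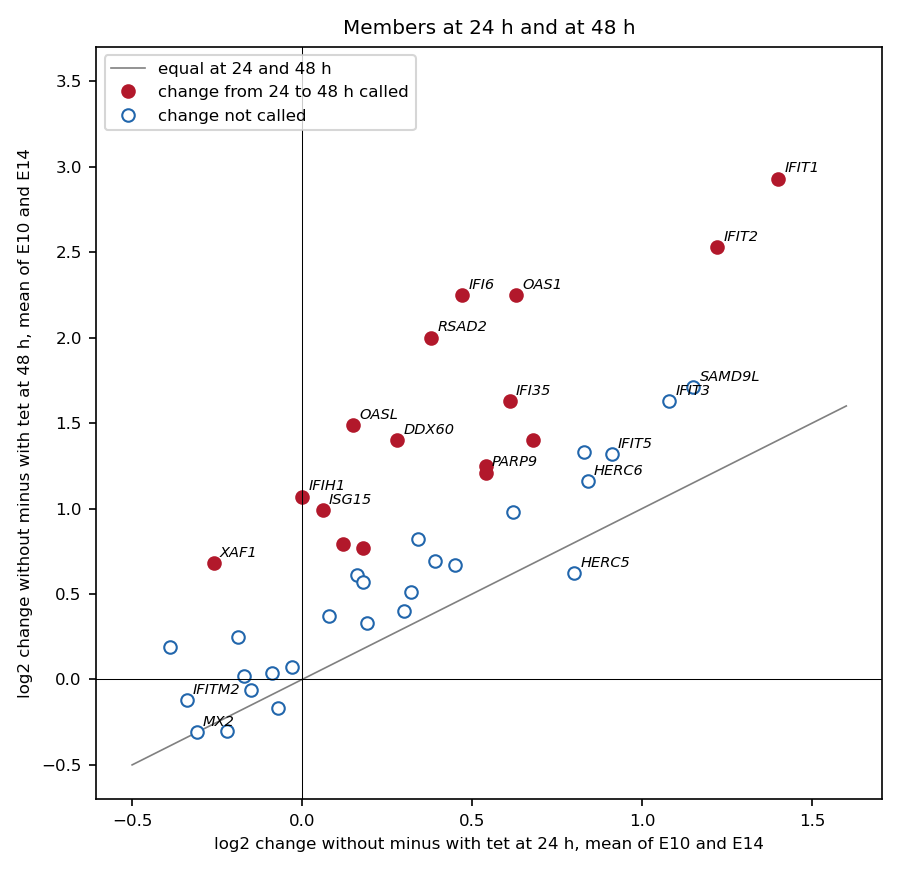
Log2 change without minus with tet, mean of E10 and E14, at 48 h (y axis) against 24 h (x axis), 1 point per gene. Filled points passed the test of the change from 24 to 48 h, and the grey line marks equal changes. IFI6 (0.47 and 2.25), OAS1 (0.63 and 2.25) and RSAD2 (0.38 and 2.00) lie far above the line, and HERC5 (0.80 and 0.62) lies under it.

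In the control lines, which carry no EVI1 transgene, 11 of the 42 genes rose after 48 h without tet and 1 fell, against 5.41% and 5.30% of all genes. The median over the 42 genes was 0.19. OAS1 had 0.96, IFIT2 0.92 and IFI6 0.80, and OAS3, IFIT1, IFI35, IFIT3, SAMD9, PLSCR1, HERC6 and SP110 followed with 0.72 to 0.37. All 11 were among the 31 genes that rose in the clones, which is 35.5% of the latter. With the line left out of the model 6 genes passed as higher, and 3 without P2 or without U937T. By line, the median was 0.24 in P2 and in U937T, and 30 and 33 of the 42 genes were above 0 (71.4% and 78.6%). In E10 and E14 it was 0.76 and 0.82, with 37 above 0 in each (88.1%). Of all genes, 43.8% were above 0 in P2, 50.2% in U937T, 43.8% in E10 and 48.5% in E14.

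Between 6 and 48 h in the clones with tet throughout, 0 of the 42 passed by limma in either direction, against 3.10% and 4.07% of all genes. At an unadjusted p under 0.05 by limma, 7 of the 42 were higher and 3 lower. Other settings called up to 4 of the 42 higher by the adjusted test. Between the clones and the control lines at 48 h with tet, 0 of the 42 passed by limma in either direction, against 0.0224% and 0.00560% of all genes. At an unadjusted p under 0.05 by limma, 7 of the 42 were higher and 2 lower. IFIT2 had the lowest p of the 42, at 6.35 and 6.94 in E10 and E14 against 6.01 in P2 and 4.62 in U937T (difference 1.33, adjusted p = 0.16 from limma).

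Most of the genes shared a common course over the 10 differences between cultures without and with tet. The correlation of a gene with the mean of the others was over 0.8 in 28 genes, and highest, at 0.97, in DDX60 and TRIM22. It was lowest in MX2 (-0.62), OAS2 (-0.56), EPSTI1 (-0.54) and IFITM3 (-0.50). Over the 861 pairs of genes it ran from -0.88 to 0.98, with a median of 0.59. These values describe 10 pairs of arrays, which share lines and hybridizations. The same correlations were not taken over all genes. Whether a common course sets the effector genes apart from other genes was therefore not tested.

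Outside the effector genes, lists of other genes of the interferon pathway were examined in the EVI1-specific response. Of 21 listed interferon genes 10 were measured, IFNB1 among them. The rest, such as IFNG, had no probe set of their own or lay under the intensity filter. Of the 10, 0 passed by limma in either direction (0 and 0 at an unadjusted p under 0.05), with values from -0.27 to 0.29. All 10 were dim, since from 3.86% (IFNA14) to 29.3% (IFNA17) of all tested genes had a lower mean. The probe sets of the IFNA genes may also match other transcripts, so a change of interferon RNA may have gone unseen. IFNB1 lay between 3.55 and 4.26 on all arrays. Of 9 receptors and kinases, 1 rose, IFNGR1, a chain of the receptor for interferon gamma, with 0.60 (adjusted p = 0.012 from limma). Of 7 measured transcription factors 3 rose: IRF7, the main activator of interferon alpha genes, IRF9, which brings the type I complex to DNA, and IRF2, which competes for the same sites. IRF7 lay between 6.65 and 7.59 on all 10 arrays with tet, and at 8.26 and 8.49 after 24 h and 9.05 and 9.36 after 48 h in E10 and E14 without it, against 7.68 in P2 and 7.43 in U937T. IRF9 lay between 6.76 and 7.82 with tet, and at 9.33 and 9.35 after 48 h in E10 and E14 without it, against 7.98 and 7.63 in P2 and U937T. Both clones exceeded the control lines, with 1.59 for IRF7, 1.36 for IRF9 and 0.65 for IRF2 (adjusted p = 0.00049, 0.0094 and 0.03 from limma), and all 3 had also risen in the control lines, by 0.81, 0.96 and 0.89 (limma adjusted p = 0.0031, 0.0058 and 0.00027).

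Of 14 further sensors and adaptors of foreign nucleic acids, 2 passed the EVI1-specific test as higher. They were TLR9 and TLR3, receptors of DNA and of double-stranded RNA in endosomes. TLR9 lay between 5.54 and 6.05 on the arrays with tet and at 9.19 and 8.74 after 48 h in E10 and E14 without it, against 6.73 and 6.82 in P2 and U937T. The values were 2.35 for TLR9 and 0.85 for TLR3 (adjusted p = 0.00012 and 0.011 from limma). TLR3 was dim, with a mean of 3.55, and its other probe sets lay under the intensity filter. Of 6 negative regulators, 0 passed by limma (1 higher and 0 lower at an unadjusted p under 0.05). Of 27 further targets of type I interferon, 4 passed by limma as higher and 0 as lower (11 and 1 at an unadjusted p under 0.05), with a median of 0.29. They were BATF2, a transcription factor, with 1.20, RTP4 with 0.95, HELZ2 with 0.84 and SHFL, which blocks ribosomal frameshifting in viruses, with 0.64. The standard deviation of HELZ2 over all arrays was 0.436 on the probe set used and 0.14, 0.159 and 0.17 on its others. That of SHFL was 0.281 on the probe set used and 0.527 and 0.336 on its others. APOL6 and APOBEC3G, which did not pass, had 0.177 and 0.103 on the probe sets used, and up to 1.165 and 1.045 on others. BATF2 and RTP4 had no other probe set. Whether the count of 4 depends on the probe set was not tested. Of 17 targets known mainly from interferon gamma, PSMB9, a subunit of the immunoproteasome, passed as higher with 0.60. WARS1, a tryptophan tRNA ligase, passed as lower with -0.75 (adjusted p = 0.038 and 0.029 from limma), and the median of the 17 was -0.01.

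**Figure D4:**
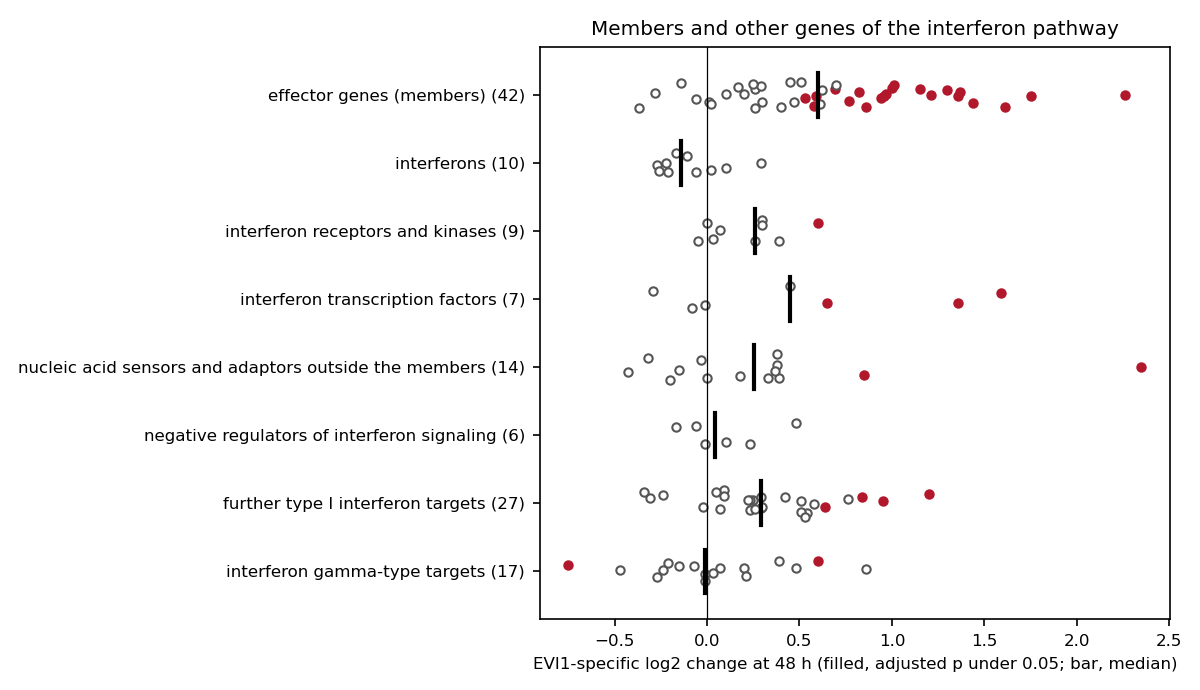
EVI1-specific log2 change at 48 h (x axis) of the effector genes and of 7 other lists of the interferon pathway, 1 point per gene, with the number tested in brackets. Filled points have an adjusted p under 0.05 by limma and black bars are medians, from 0.60 for the effector genes to -0.14 for the interferons.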

How the data were processed

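Each of the 20 cultures was hybridized to 1 Affymetrix HG-U133 Plus 2.0 array. The deposited values are log2 intensities, which the authors had obtained by Robust Multi-array Analysis (background adjustment, quantile normalization across arrays and summarization of probes by median polish), and they were used as they are. Of 54675 probe sets, 41097 carry 1 gene symbol in the platform annotation, while 1801 carry several and 11777 none and were not used. The intensity filter and the probe set with the highest mean per gene gave 17860 genes. They were fitted with limma 3.58.1 in R 4.3.3, with 10 groups and the line as a fixed block (8 residual and 5.74 prior degrees of freedom). The contrast between clones and control lines with tet had no block. Benjamini-Hochberg adjustment ran over all genes tested, with 0.05 as the threshold.

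Groups came from the labels, which name the lines, so that cultures with and without tet are paired by line. Across genes, E10 minus E14 correlated by -0.22 to 0.52 (median 0.11) over 28 pairs of groups, and P2 minus U937T by -0.21 between conditions. The genes, the pathway lists and the rule for naming genes were chosen with earlier results of these data known. Values on every array are given for the gene with the largest EVI1-specific change in each role group (or, where none passed, the highest mean) and for the 3 largest control responses. Of the pathway lists, genes that passed the EVI1-specific test are named. Values of other genes were added after they were seen. Fits were tested on simulated data. Alternatives covered the filter, the probe set, centring, the variance model, the block, the arrays fitted, a 2-fold minimum and each line left out. The crossed block of the control lines was chosen after seeing the data. Promoter windows came from RefSeq (GRCh38.p14), which names the build of every coordinate given.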

Additional observations from a re-analysis of the deposited data

Results flagged for a closer look

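The EVI1 clones and the control lines differed after 48 h without tet in 21 effector genes, by the limma test of the difference itself. On the log2 scale the differences were 2.26 for IFIT1, 1.75 for RSAD2, 1.61 for IFIT2, 1.44 for IFI6, 1.37 for OASL, 1.36 for SAMD9L, 1.30 for OAS1, 1.21 for PARP9, 1.15 for XAF1, 1.01 for IFIT3, 1.00 for DDX60, 0.97 for IFI35, 0.96 for ISG15, 0.94 for TRIM22, 0.86 for IFIT5, 0.82 for IFIH1, 0.77 for SAMD9, 0.69 for HERC6, 0.59 for EIF2AK2, 0.58 for LGALS3BP and 0.53 for PARP14. Other genes of the pathway that differed in this way were TLR9 with 2.35, IRF7 with 1.59, IRF9 with 1.36, BATF2 with 1.20, RTP4 with 0.95, TLR3 with 0.85, HELZ2 with 0.84, IRF2 with 0.65, SHFL with 0.64, IFNGR1 and PSMB9 with 0.60 each, and WARS1 with -0.75.

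The response of the clones differed between 24 and 48 h in 16 effector genes, again by the limma test of that difference. No control line was harvested at 24 h, so the part of tet withdrawal by itself was not tested. The values were 1.78 for IFI6, 1.62 for OAS1 and for RSAD2, 1.54 for IFIT1, 1.34 for OASL, 1.31 for IFIT2, 1.11 for DDX60, 1.07 for IFIH1, 1.01 for IFI35, 0.94 for XAF1, 0.93 for ISG15, 0.72 for SAMD9, 0.71 for TRIM22, 0.66 for MX1 and for PARP9, and 0.59 for LGALS3BP.

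In EPSTI1, UBE2L6 and DTX3L both clones moved one way and both control lines the opposite way at 48 h, although E14 changed by 0.00 after rounding in UBE2L6, and the limma test of the difference did not pass. The differences were -0.37 for EPSTI1 (adjusted p = 0.25 from limma), 0.26 for UBE2L6 (adjusted p = 0.37 from limma) and 0.47 for DTX3L (adjusted p = 0.075 from limma). Such opposite moves were not counted over all genes. EPSTI1 was dim, with a mean of 4.03. On its other probe set, under the intensity filter, U937T moved with the clones (-0.08, beside -0.11 in E10 and -0.32 in E14). No group held enough arrays for a check of single arrays that stand apart.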

How the results depend on the processing

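Counts of effector genes that passed the test of the EVI1-specific response as higher ranged from 2 to 15 with a line left out, against 21, and were 17 with the 12 and 24 h arrays of E14 left out, 13 with only the arrays at 48 h and 10 with a 2-fold minimum, while 0 were lower under every alternative run. The count of 21 was also 15 with the probe set of largest spread and 18 with no replicate block. Over all genes, 434 passed as higher, 177 with only the arrays at 48 h and 124 with a 2-fold minimum. With the probe set of largest spread 329 of all genes passed as higher, and 365 with no replicate block. With a line left out, 1 residual degree of freedom remained where it was a clone, and the lone line is assumed to vary like the others. The response of the clones gave 19 higher genes at 24 h, 9 with those arrays of E14 left out, 4 with a 2-fold minimum and from 4 to 18 with a line left out, and 2 lower genes at 24 h, which became 0 with those arrays of E14 left out or a 2-fold minimum and from 0 to 2 with a line left out. At 48 h, 31 genes were higher and 17 with a 2-fold minimum, and 1 was lower, but 0 with only the arrays at 48 h, with a 2-fold minimum, or without E10 or E14. In the control lines 11 genes were higher, 6 with no replicate block (the line left out of the model), 7 with only the arrays at 48 h, 0 with a 2-fold minimum and from 3 to 7 with a line left out. There 1 gene was lower, 2 with an intensity trend and robust estimation, and 0 with the probe set of largest spread, only the arrays at 48 h, a 2-fold minimum or any line left out. The change from 24 to 48 h passed in 16 genes, 10 with the probe set of largest spread, 4 with those arrays of E14 left out, 9 with a 2-fold minimum and from 0 to 16 with a line left out. Time in culture with tet gave 0 higher genes, 4 with a mean log2 intensity of at least 5, 1 with the mean of all probe sets, 2 after centring, with the intensity trend or with only the arrays of the clones, 1 with those arrays of E14 left out and up to 2 with a control line left out. The comparison of clones and control lines with tet gave 1 higher gene without P2 and 0 otherwise. IFITM2 reversed from -0.06 to 0.03 without E14 and to 0.03 without U937T, in a range from -0.14 to 0.03 with a line left out. EIF2AK2, which had passed with 0.59, turned to -0.39 with the probe set of largest spread. Signs also turned in genes that had not passed, to -0.06 in MX2 and -0.05 in IFITM3 after centring, and with a line left out to -0.05 at the lowest in MX2 and IFITM3, -0.03 in CMPK2 and 0.07 at the highest in IFITM1. Beyond the control lines the replicate block changed no count of calls by over 1.5 times, and the crossed block gave 20 EVI1-specific genes and 2 higher with time in culture. The cause of these shifts was not tested. No measure of signal over background was used here.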
